A study of Mus musculus with 46 samples.

Results

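The genes described here are the cytoplasmic ribosomal protein genes of the mouse, which encode the proteins of the ribosome that translates nuclear messages in the cytosol. They were taken as the protein-coding entries whose symbol is Rpl or Rps followed by a number, with an optional letter or paralog ending, plus Rplp0, Rplp1, Rplp2 and Rpsa. Mitochondrial ribosomal protein genes (Mrpl, Mrps) and pseudogenes were left out. So was Rps4l, whose symbol fits but whose entry is not annotated as protein-coding. The rule found 83 of the 48795 genes measured, 51 of the large and 32 of the small subunit.

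RNA was sequenced from 46 samples of MC-38, a mouse colon carcinoma line, grown in culture or as subcutaneous tumors in female mice aged 8 to 10 weeks. In the antibody study, MC-38 cells in culture (3 samples) and untreated baseline tumors from WT mice (3) were set beside tumors from WT mice given an isotype control antibody or the anti-mouse PD-1 antibody muDX400 (PD-1 Ab) at 5 mg/kg. Tumors were taken at day 4 after 1 dose or day 8 after 2 doses (day 11 or 15 after implantation), with 5 tumors in each of the 4 groups. In the deletion study, tumors grew in mice labelled PD-1cKO, carrying ROSA26-creERT2 and Pdcd1 fl/fl, or in WT littermates, with 10 tumors in each group. Both genotypes received tamoxifen at 40 mg/kg on 5 days and are labelled day 28, while the methods of the study give an earlier day of excision. The creERT2 is driven from the ROSA26 locus and is not limited to T cells, and only the host cells carry it, since MC-38 cells were injected.

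Each ribosome holds a single copy of nearly every ribosomal protein, assembled with ribosomal RNA in the nucleolus into a large and a small subunit. The messages for these proteins are short, abundant and begin at a stretch of pyrimidines, the 5′ terminal oligopyrimidine tract, through which their translation follows mTOR signalling. Their output rises with cell growth and proliferation, so a tumor's level reflects both its growing cancer cells and the leukocytes and stroma around them.

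The start-site stretch is the sequence feature that the family shares, and it was looked for in 63 members that have a RefSeq start on GRCm38.p6. Where a gene has several RefSeq starts, the start with the longest run was taken, in members and other genes alike. That choice can only raise the share with a run. A run of at least 8 consecutive C or T bases on the transcribed strand, within 30 bases on either side of the start, was present in 35 of the 63 members (55.56%) and in 25.45% of 16367 other protein-coding genes. The letters CTTTC, which often lie inside such a run, were found on that strand in 34.92% of the members and 7.564% of the other genes. The median longest run was 9 bases in the members and 6 in the others. A match is a description of the letters in the window and not a mapped start.

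The windows below, of 30 bases on the transcribed strand of GRCm38.p6 with the chosen RefSeq start in the middle, show members to which the results return. They were picked to show the run in both subunits and in paralog pairs, in which a second gene encodes a similar protein, and Rpl10 and Rps4x were added as members without a long run. Capitals mark the longest run of C or T bases in the window where it has at least 5 bases. Coordinates follow each name. Rpl22 is not shown because its RefSeq start lies outside the gene as annotated in GENCODE M21.
Rps6 (chr4:86857353-86857382, minus strand): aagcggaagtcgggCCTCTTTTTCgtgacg
Rplp2 (chr7:141447636-141447665, plus strand): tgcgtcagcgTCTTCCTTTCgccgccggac
Rpl38 (chr11:114668565-114668594, plus strand): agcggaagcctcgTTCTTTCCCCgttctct
Rpl13a (chr7:45128731-45128760, minus strand): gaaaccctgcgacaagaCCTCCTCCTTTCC
Rps27 (chr3:90213634-90213663, minus strand): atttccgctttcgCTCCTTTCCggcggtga
Rps27l (chr9:66946071-66946100, plus strand): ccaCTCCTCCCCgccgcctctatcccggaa
Rpl22l1 (chr3:28805493-28805522, plus strand): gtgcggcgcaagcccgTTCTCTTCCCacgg
Rpl39 (chrX:37085208-37085237, minus strand): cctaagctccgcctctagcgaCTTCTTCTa
Rpl39l (chr16:10170213-10170242, plus strand): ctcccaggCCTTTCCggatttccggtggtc
Rpl10 (chrX:74270801-74270830, plus strand): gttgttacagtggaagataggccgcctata
Rps4x (chrX:102189377-102189406, minus strand): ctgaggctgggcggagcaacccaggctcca

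The runs were 10 bases long in Rps6, Rplp2, Rpl38 and Rpl22l1, 13 in Rpl13a, 9 in Rps27 and Rps27l, 8 in Rpl39, 7 in Rpl39l, 4 in Rps4x and 3 in Rpl10. The members lay on 19 chromosomes, 4 of them on X, so they are not a cluster in the genome. Their median transcript was 799 bases, against 2503 for protein-coding genes. A median of 34.47% of the 50-base stretches in a member's transcripts also occurred in another gene and 22 members shared more than 50%. How the aligner divided such reads can change the level of a member, so levels of single members carry that uncertainty.

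Some libraries stand apart. The values are FPKM, fragments scaled for both transcript length and library total, and the number of reads behind them is unknown, so precision here is the spread between samples. In isotype 1 dose, replicate 1 had a summed mitochondrial FPKM of 446913 against at most 18985 in the other 4, and the members summed to 25541 FPKM there against 40096 in the next. In isotype 2 doses, replicate 3 had the highest members' sum, 85685, with 63069 in the next. Small non-coding RNAs of the misc_RNA class took 26.4 to 59.8% of all FPKM in the deletion study and at most 0.0054% in the antibody study and culture, so fold changes and tests were taken within a study only. Within the deletion study this share was 26.4 to 48.1% in WT (median 39.4) and 27.2 to 59.8% in PD-1cKO tumors (median 47.8). Unscaled FPKM and summed levels of that study carry this difference, and its part in them was not tested. The epithelial markers Epcam, Krt8, Krt18, Krt19 and Cdh1 were each under 1 FPKM in all 3 cultures of this carcinoma line. Pdcd1, the gene for PD-1, was at 1.71 to 7.02 FPKM in WT and 5.05 to 19.9 in the tumors labelled PD-1cKO. The floxed part is exons inside the gene and the FPKM covers the whole gene, exons outside that part included, so this value cannot check the deletion, and the directions given for that study rest on the labels.

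The ribosomal protein genes were abundant in all groups. Of the 83 members, 80 were above 1 FPKM in all 46 samples, and 76 had a mean over 100 FPKM. Mean FPKM over the samples ran from 35.4 to 1552 among these 80 with a median of 506. In culture they made up 15.1 to 15.5% of the summed FPKM of nuclear protein-coding genes, and in tumors 9.18 to 16.5%. In bulk tissue, fewer cells of a type and less RNA per cell cannot be told apart.

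**Figure D1:**
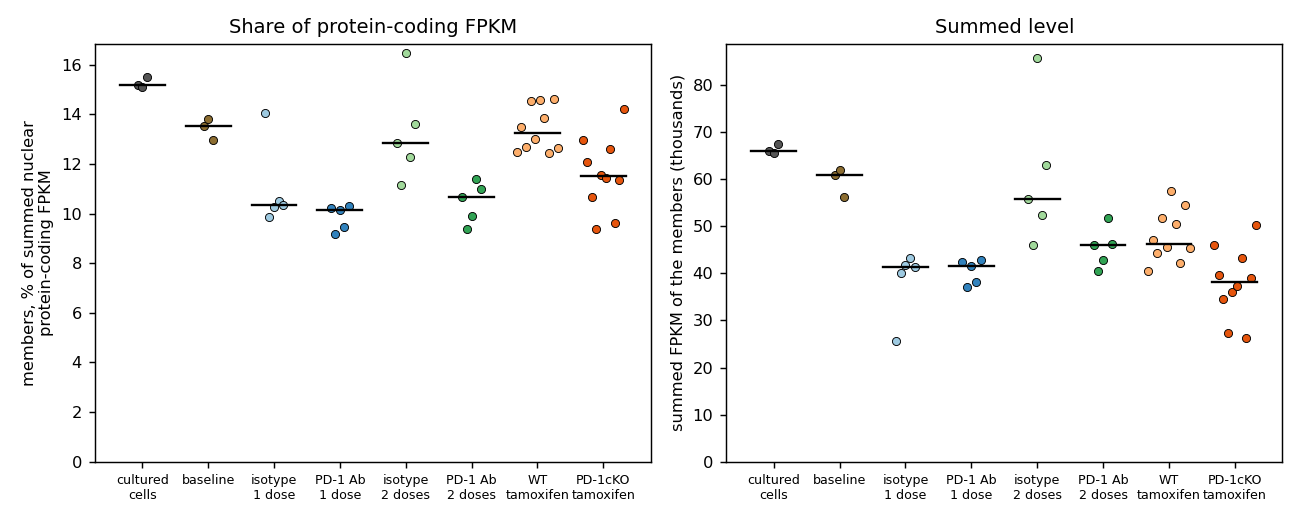
Left, the members' share of summed nuclear protein-coding FPKM (%), and right, their summed FPKM on an axis in units of 1000, with 1 point per sample and a line at the group median for the 8 groups. The 3 cultures sit at 15.1 to 15.5% and the PD-1 Ab tumors between 9.18 and 11.4%. The single high point in isotype 1 dose (14.05%) is the library with the lowest sum. The other isotype 1-dose tumors (9.88 to 10.5%) lie within the PD-1 Ab range, while the isotype 2-dose tumors lie at 11.2 to 16.5%.

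The members with the highest mean were Rplp0 (1552 FPKM) and Rplp1 (1455), both of the acidic stalk that recruits translation factors to the large subunit. They were followed by Rpl41 (1318), the shortest ribosomal protein, Rps2 (1303) of the small subunit and Rpl19 (1204) of the large subunit. This order pools all 46 samples: within baseline tumors Rplp1 (mean 1897) and Rpl41 (1647) were above Rplp0 (1564), and within PD-1cKO tumors so was Rplp1 (1572 against 1392). At the other end, Rpl10l, a retrocopy of Rpl10 known from testis, was listed at 0 in all 46 samples. Rpl3l, the muscle paralog of Rpl3, had a mean of 0.268 FPKM and reached 2.63 in 1 PD-1cKO tumor, and Rpl39l, known from testis and some tumors, had a mean of 1.33 and a maximum of 3.95. Next came Rpl7l1 at 35.4 and Rpl5 at 39.6 FPKM. Rpl5 encodes a core protein of the large subunit, yet its FPKM was lower than that of its partner Rpl11 (mean 346).

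The order of the members was largely kept between groups. The Spearman correlation of the 80 members' mean FPKM against culture was 0.98 for baseline tumors, 0.83 and 0.82 for isotype and PD-1 Ab after 1 dose, 0.89 and 0.85 after 2 doses, 0.80 for WT and 0.73 for PD-1cKO tumors. These are descriptions over genes, which share libraries, transcript lengths and the same aligner, and the last 2 cross the studies. Summed small-subunit FPKM was 0.669 to 0.813 of the large-subunit sum over all samples. The spread between samples of a group was narrow in culture (median SD of log2 FPKM 0.036) and wide in PD-1cKO tumors (0.44), with WT at 0.22.

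Tumors were compared with cultured MC-38 cells to ask what growth in the mouse changes. In baseline tumors 16 of 80 tested members fell and none rose, led by the stalk protein gene Rplp0 and by Rpl10 and Rpl5. The fall was small, with a median log2 fold change of -0.13 over the members against -0.04 over all genes tested. A call here is an adjusted p under 0.01 (limma, Benjamini-Hochberg over all genes tested) and at least a 1.2-fold change on the log2(FPKM + 0.1) scale. By that rule 20% of the members and 17.8% of all genes were lower, and 0% and 20.4% were higher, so the share that fell was near the background.

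Rplp0 was at 2546, 2504 and 2563 FPKM in the cultures and at 1654, 1636 and 1401 in the baseline tumors. The groups did not overlap, and Rplp0 fell by 0.70 on the log2 scale (SE 0.08, adjusted p = 0.000267 by limma). The 2 other stalk genes differed less. Rplp1 was at 2102, 2083 and 2126 in culture and 1921, 1987 and 1784 at baseline, and Rplp2 at 600, 613 and 580 against 599, 650 and 724, so that neither passed the test.

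Rpl5 and Rpl11 encode the proteins that bind the 5S ribosomal RNA and, when assembly is disturbed, can bind the p53 regulator Mdm2. Rpl5 was at 59.7, 57.7 and 62.9 FPKM in culture and at 41.2, 36.9 and 43.7 at baseline. Rpl11 was at 553, 544 and 592 against 420, 457 and 369. Neither gene's groups overlapped, and both fell, Rpl5 by 0.57 (SE 0.07, adjusted p = 0.000433, limma) and Rpl11 by 0.44 (SE 0.08, adjusted p = 0.00308, limma) on the log2 scale. Of 10 targets of p53, 4 were called higher in baseline tumors than in culture and 0 lower, where 20.4% of all genes were higher. The lowest of the 10 was Bax, with a log2 fold change of -0.30. Whether these targets have a part in the fall of Rpl5 and Rpl11, or the reverse, was not tested.

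Rpl10, which joins the large subunit late in its assembly, was at 429, 363 and 406 FPKM in culture and 316, 230 and 221 at baseline, and fell by 0.66 on the log2 scale (SE 0.14, adjusted p = 0.00468 by limma). Among the members with other roles, Rps6, the target of S6 kinases, also fell. It was at 1526, 1491 and 1575 in culture and 1319, 1255 and 1111 at baseline, again without overlap. Rpl28 (0.24) and Rpl17 (0.15) had log2 fold changes above 0, and neither passed the test.

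The call count at baseline rests on few samples. Without culture replicate 1, 2 or 3 it was 4, 5 and 5 members lower, and with all 8 groups in a single fit it was 0. The marker genes of other cells moved with it: macrophage markers summed to 2.68 to 3.29 FPKM in culture, with Adgre1, C1qa, C1qb and C1qc at 0, and to 528 to 1194 at baseline. Proliferation genes fell in 10 of 16. The part of either in the members' levels was not tested.

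Tumors after 2 doses of isotype control were also set against culture. Here 7 of 81 members fell (8.64%, against 16.8% of all genes tested) and 2 rose (2.47%, against 20.2%), with a median log2 fold change of -0.16 over the members and -0.11 over all genes. Lower were Rps29 and Rps28, short proteins of the small subunit, with Rpl10, Rpl39, Rpl5, Rps27l and Rpl36a. Rpl36a is a member, but it falls outside the rule for which members are described singly. Higher were Rps23, which lies at the decoding centre, and the low-level paralog Rpl39l. Rpl39l passed the filter of 0.5 FPKM only through the isotype group, where it was high, so its call is a description. This comparison and the previous share the 3 cultures.

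Rps29 was at 841, 828 and 864 FPKM in culture and at 378, 307, 643, 342 and 469 in the isotype 2-dose tumors, with 839, 814 and 786 at baseline. Rps28 was at 990, 1024 and 972 in culture, 486, 406, 765, 411 and 542 in the isotype tumors and 906, 910 and 894 at baseline. Both genes were thus close to culture at baseline and below it, with no overlap, in all 5 isotype tumors. Their log2 fold changes from culture were -1.03 for Rps29 (SE 0.22, limma adjusted p = 0.00359) and -0.97 for Rps28 (SE 0.20, limma adjusted p = 0.00292). Rps21, at 1335, 1334 and 1360 in culture and 658, 515, 1280, 615 and 822 in the isotype tumors, had a similar difference of -0.86 but missed the test (limma adjusted p = 0.0193).

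Rps23 was at 371, 386 and 389 FPKM in culture and 543, 471, 781, 531 and 634 in the isotype tumors, and its groups did not overlap (log2 fold change 0.61, SE 0.15, limma adjusted p = 0.00917). Rpl28 had the same difference of 0.61 and missed the test (limma adjusted p = 0.0238). Rpl5, called lower here too, was near its baseline level, with 38.2, 39.1, 41.8, 40.2 and 36.0 FPKM in the isotype tumors.

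Isotype replicate 3 widened the spread of this group in most members. Without this tumor 29 members were lower than culture, and without culture replicate 1, 2 or 3 the count was 2 each time, while leaving out isotype replicate 1 gave 4. Scaling mattered as well. With a median-of-ratios scaling 4 members were lower and 2 higher, beside 14.2 and 21.9% of all genes tested. With scaling to protein-coding FPKM 21 were lower and 2 higher, beside 17.3 and 18%. For the counts without a replicate no share of all genes is given, so they are not set against a background. Markers of other cells moved with this comparison, with 8 of 8 macrophage, 9 of 9 T cell and 4 of 4 endothelial markers higher than in culture and 14 of 16 proliferation genes lower. Their part in the members' levels was not tested.

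Coding length went with the members' difference between isotype tumors and culture. Over 80 members, the log2 fold change of isotype 2-dose tumors from culture rose with the length of the coding sequence (Spearman correlation 0.49), while over 12744 other protein-coding genes the correlation was -0.20. For baseline against culture it was -0.02 in the members and -0.18 in the others. The 10 members with a coding sequence under 300 bases had a median of -0.68 in the isotype tumors and -0.18 at baseline, against -0.09 and -0.11 in the 70 longer members. Other short genes did not show this in the isotype tumors, with medians of -0.05 for 282 genes under 300 bases and -0.04 for the longer ones. Short transcripts give few fragments and are sensitive to the size of RNA and library inserts, which the files do not record, so the part of these in the pattern was not tested.

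**Figure D2:**
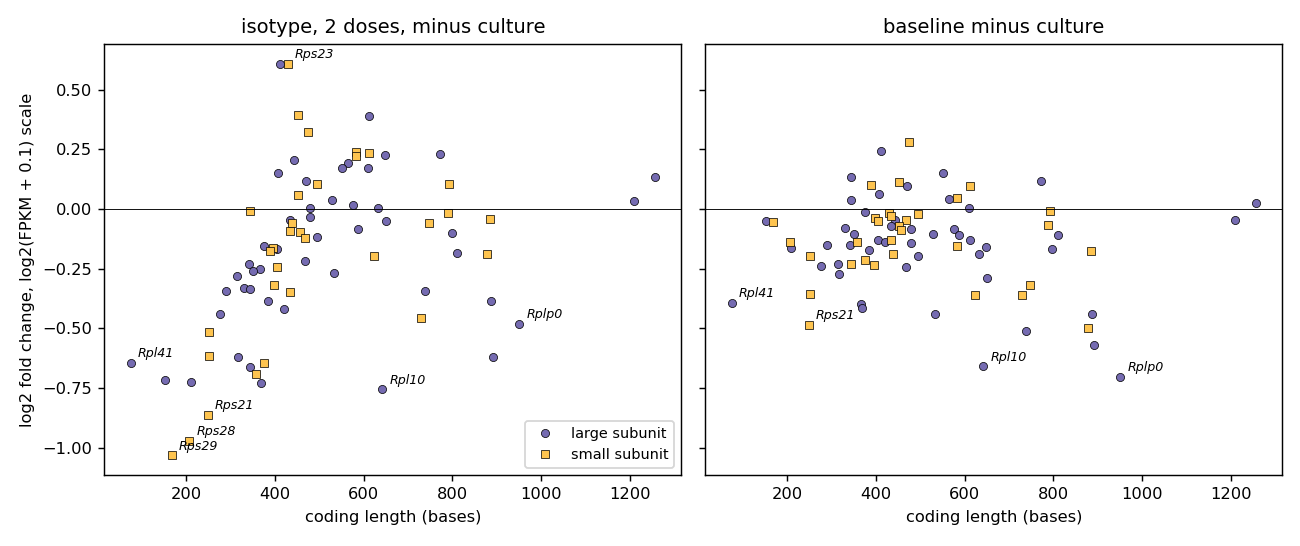
Log2 fold change of 80 members (log2(FPKM + 0.1) scale) against coding length in bases, for isotype 2-dose tumors minus culture (left) and baseline tumors minus culture (right), circles for the large and squares for the small subunit. On the left the shortest members, such as Rps29 and Rps28, lie lowest, while on the right Rplp0 and Rpl10 lie lowest and length shows no trend.

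A direct comparison of baseline with isotype 2-dose tumors called no member in either direction (limma), against 0.448% of all genes higher and 0.18% lower at baseline. At an unadjusted p under 0.05, 12 of 81 members differed, beside 17.7% of all genes tested. Rps29 (log2 fold change 0.98, SE 0.22, limma adjusted p = 0.0478), Rps28 (0.83) and Rpl30 (0.70) had the highest values at baseline, and in each the 3 baseline tumors were above all 5 isotype tumors. The lowest were Rpl39l (-1.85), which passed the filter through the isotype group alone, Rps23 (-0.62) and Rpl15 (-0.52). Without isotype replicate 3, 4 members were called higher at baseline, Rps29, Rps28 and Rpl30 among them. The Spearman correlation with coding length was -0.64 in the members and 0.16 in the other genes.

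A single dose of PD-1 Ab was compared with isotype control at day 11 after implantation. No member was called in either direction by limma, and the same was true of all genes tested (0% higher and 0% lower). At an unadjusted p under 0.05, 0 of 82 members passed, against 6.15% of all genes, and the smallest adjusted p of a member was 0.825. The median log2 fold change was 0.11 over the members and 0.26 over all genes. With median-of-ratios scaling the medians were -0.15 and 0.01, and without isotype replicate 1 the members' median was -0.03, so no direction of the family can be given for this time.

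Isotype replicate 1 was the lowest of the group in the members shown next. Rplp0 was at 503, 1377, 1309, 1357 and 1256 FPKM with isotype and at 1229, 1073, 1238, 1050 and 1202 with PD-1 Ab. Rpsa, the small-subunit protein also known as laminin receptor, was at 232, 602, 632, 600 and 577 against 572, 518, 601, 547 and 573. In Rpsa the other 4 isotype tumors overlapped the PD-1 Ab tumors, while in Rplp0 those 4 lay just above all 5 PD-1 Ab tumors, so the groups overlapped through replicate 1 alone. The highest differences were 1.21 for Rpl3l and 1.01 for Rpl39l, both at or under 2.92 FPKM in these tumors and Rpl3l above the filter of 0.5 FPKM only through the PD-1 Ab group, followed by 0.27 for Rps9, and the lowest were -0.11 for Rps20 and -0.07 for Rps25 and Rpl12.

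After the second dose, at day 15, nearly every member had a lower mean with PD-1 Ab while none passed the adjusted threshold. The log2 fold change was below 0 in 80 of 81 tested members, with a median of -0.38, or -0.39 with median-of-ratios scaling, against -0.04 over all genes tested. No member was called higher or lower by limma, where 6.69% of all genes were higher and 1.56% lower. At an unadjusted p under 0.05, 53 members were lower (65.4%, against 19.4% of all genes). In 15 members the PD-1 Ab tumors were all below the isotype tumors (18.5%, against 6.12%). The large and small subunits moved alike, with medians of -0.37 and -0.38. Isotype replicate 3 carried part of the difference, and without it the median was -0.25.

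Rpl37 had the lowest log2 fold change. It was at 461, 382, 720, 411 and 538 FPKM with isotype and 339, 264, 294, 331 and 355 with PD-1 Ab, with no overlap (-0.64, SE 0.17, limma adjusted p = 0.0187). Rpl38, which is known for its part in the translation of Hox messages, was at 513, 422, 882, 422 and 600 against 375, 317, 325, 372 and 379 (-0.63, SE 0.18, limma adjusted p = 0.0298). Rps28 was at 486, 406, 765, 411 and 542 against 355, 301, 326, 371 and 363 (-0.57, SE 0.16, limma adjusted p = 0.0274). In all 3 the highest PD-1 Ab tumor was below the lowest isotype tumor, by a margin smaller than the spread among the isotype tumors.

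Rpl22l1, the paralog of Rpl22, had the smallest adjusted p of the members (0.0146, limma) and a narrow range after treatment. It was at 94.3, 91.0, 136, 81.9 and 105 FPKM with isotype and 69.1, 69.8, 72.8, 72.0 and 71.6 with PD-1 Ab (-0.49, SE 0.12). Its parent Rpl22 was at 495, 448, 742, 474 and 574 against 414, 343, 385, 427 and 431. Both genes lay lower in every PD-1 Ab tumor than in any isotype tumor.

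The other named members were nearer to the family median. Rplp0 was at 1797, 1340, 2558, 1688 and 1910 FPKM against 1296, 1054, 1230, 1718 and 1299, and the groups overlapped through PD-1 Ab replicate 4. The smallest differences were in Rpl10 (-0.13) and Rpl6 (-0.14). Rpl39l was the sole member above 0, at 0.519, 1.71, 1.70, 0.544 and 1.17 with isotype and 1.63, 3.85, 2.54, 2.88 and 1.83 with PD-1 Ab (1.19, SE 0.36, limma adjusted p = 0.0344), and these low groups overlapped.

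T cell and macrophage markers rose in the same tumors, while 1 of 2 tested neutrophil markers, S100a8, was called lower. Called higher were also 1 of 4 endothelial, 1 of 4 adipose and 1 of 9 tested skeletal muscle markers. All 9 T cell markers were called higher, and their sum went from 14.1 to 27.7 FPKM in isotype to 53.1 to 216 in PD-1 Ab tumors. Of 8 macrophage markers, 7 were higher, with sums of 1150 to 1586 against 1909 to 4836. Of 16 proliferation genes 1 was lower, and their sum was 978 to 1054 against 727 to 886, which did not overlap. FPKM is relative to all RNA in the sample, and the part of added leukocyte RNA in the members' values was not tested.

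**Figure D3:**
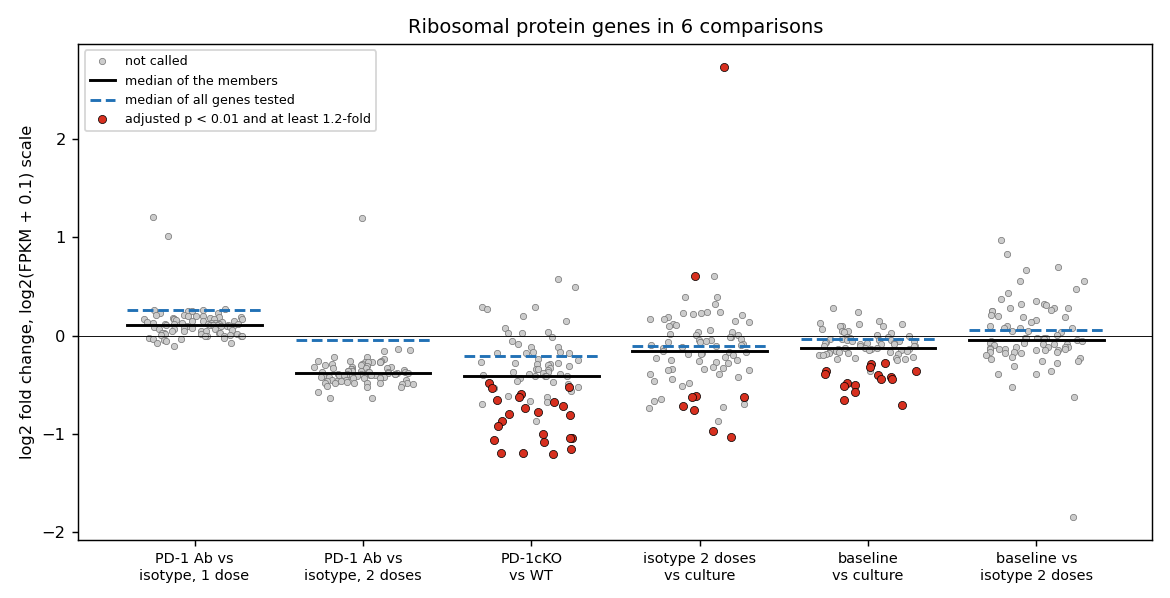
Log2 fold change (log2(FPKM + 0.1) scale) of each tested member in 6 comparisons, red where called at an adjusted p under 0.01 and at least 1.2-fold, with the members' median (solid line) and the median of all genes tested (dashed). After 2 doses of PD-1 Ab nearly all members lie below 0 with a median of -0.38 and none is called, while PD-1cKO against WT holds 23 called members.

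In tumors labelled PD-1cKO, 23 of 81 members were lower than in WT littermates and none was higher (limma, 28.4% against 12.6% of all genes lower, and 0% against 8.78% higher). Rps4l, which is not counted as a member, was called higher (log2 fold change 1.05, limma adjusted p = 0.00783). At 2-fold or more 9 members were lower (11.1%, against 3.87% of all genes). The median log2 fold change was -0.41 over the members and -0.20 over all genes tested. With median-of-ratios scaling, which moved the median of all genes to -0.04, the members' median was -0.24 with 17 lower and 1 higher, where 10.9% of all genes were lower and 12.2% higher. The large subunit had 15 lower of 49 and the small subunit 8 of 32, with medians of -0.41 and -0.39.

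Rpl7, a protein of the large subunit, fell most. Its lowest, median and highest values were 528, 675 and 1069 FPKM in WT and 170, 274 and 555 in PD-1cKO tumors. In 9 of 10 PD-1cKO tumors it was below every WT tumor (log2 fold change -1.21, SE 0.21, limma adjusted p = 0.000766). Rpl23, which like Rpl5 and Rpl11 can bind Mdm2, was at 357, 558 and 638 against 94.4, 256 and 452 (-1.19, SE 0.24, limma adjusted p = 0.00158). Rps4x, the X-linked small-subunit protein, was at 836, 1132 and 1521 against 203, 554 and 940 (-1.19, SE 0.25, limma adjusted p = 0.00215), and in both genes 8 of 10 PD-1cKO tumors were below all WT tumors.

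Rps6, whose start window is printed above, was at 1069, 1351 and 1756 FPKM in WT and 203, 713 and 1146 in PD-1cKO tumors, with a wide range among the latter. It fell by 1.15 on the log2 scale (SE 0.29, limma adjusted p = 0.00512).

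The 5S RNA partners were both lower. Rpl5 was at 38.9, 52.2 and 64.1 FPKM in WT against 18.9, 32.7 and 63.8, and Rpl11 at 270, 339 and 426 against 150, 264 and 335. Their ranges overlapped, in Rpl5 nearly to the top of WT. Rps19 and Rps25, small-subunit proteins known from Diamond-Blackfan anemia and from internal ribosome entry, were also called lower, Rps19 at 411, 491 and 593 against 170, 348 and 415. Rpl7l1 was called lower as well, with 27.4, 32.8 and 39.9 against 11.8, 21.1 and 31.2.

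Of the 10 members with known roles outside the core of translation, 3 were called lower (Rps6, Rps19 and Rps25) and the other 7 were not. Rps14, known from the 5q- syndrome, was at 759, 1346 and 1688 FPKM in WT and 532, 1307 and 1918 in PD-1cKO tumors, and Rps3, which also acts in DNA repair, at 383, 559 and 732 against 402, 506 and 979. Rpl24, mutated in the Belly spot and tail mouse, was at 162, 214 and 317 against 92.3, 168 and 228, and Rps27a, made as a fusion with ubiquitin, at 265, 311 and 472 against 231, 380 and 511. The groups overlapped in all 4, and the PD-1cKO range was wider than the WT range in Rps14, Rps3 and Rps27a.

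Other members were not called lower, and some had higher medians in PD-1cKO tumors. Rpl13a, known also for silencing of inflammatory messages, was at 942, 1180 and 1411 FPKM in WT and 995, 1295 and 2028 in PD-1cKO tumors. Rplp1 was at 1082, 1258 and 1521 against 1069, 1615 and 2073 (0.29, limma adjusted p = 0.0885), and Rplp0 at 1444, 1757 and 2187 against 684, 1364 and 2136. Within the stalk, therefore, Rplp1 had its higher median in PD-1cKO and Rplp0 in WT, and neither passed the test. Rpl39 was at 155, 205 and 297 against 125, 328 and 497 (0.50, limma adjusted p = 0.0758).

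Rpl22l1 had the highest log2 fold change (0.57, SE 0.18, adjusted p = 0.014 by limma), at 20.3, 31.8 and 43.2 FPKM in WT and 25.7, 46.8 and 62.0 in PD-1cKO tumors. In 7 of 10 PD-1cKO tumors it was above every WT tumor. It passed the threshold with median-of-ratios scaling (0.73, limma adjusted p = 0.00561) and was then the 1 member called higher.

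**Figure D4:**
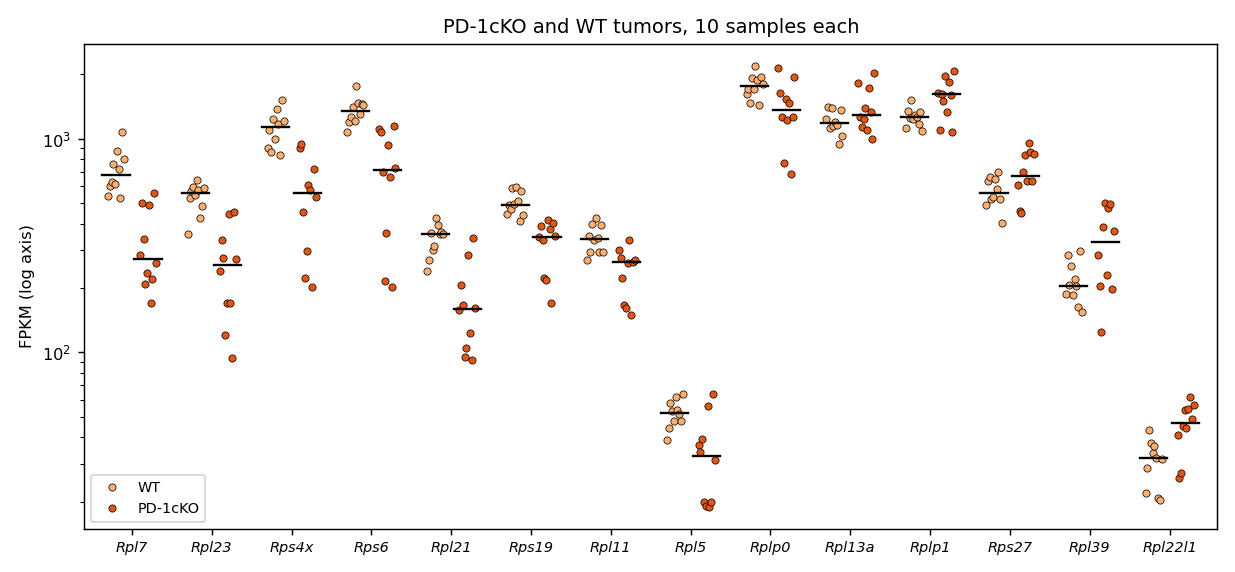
FPKM (log axis) of 14 members in the 10 WT and 10 PD-1cKO tumors, 1 point per tumor with a line at the group median. From Rpl7 to Rpl5 the PD-1cKO medians lie below the WT medians, Rplp0 is lower with wide overlap, and Rpl13a, Rplp1, Rps27, Rpl39 and Rpl22l1 have higher medians than WT.

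The differences between members made the PD-1cKO tumors less even as well as lower. The 5 most abundant members of each tumor took 15.1 to 16.8% of the members' sum in WT and 15.5 to 24.4% in PD-1cKO tumors. Leaving out Rpl39l, the 23 members called lower and the 57 others tested had similar coding lengths (medians of 480 and 453 bases) and shared sequence (35.9 and 35.1% of stretches), and a lower GC content (48.5 against 52.5%). Over 12923 other protein-coding genes the log2 fold change also rose with GC content (Spearman correlation 0.40, against 0.22 in the members). When a trend with GC content was removed from each sample, 17 members were lower and 1 was higher, beside 6.87% of all genes lower. For coding length, the correlation was -0.35 in the members and -0.001 in the others.

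The sample identifiers bear on this comparison. They fall into 3 runs of numbers, A, B and C, with 7 PD-1cKO tumors in A, 9 WT and 1 PD-1cKO in B, and 1 WT and 2 PD-1cKO in C. What the runs stand for is not given, and genotype and run largely cannot be told apart. With the run as a covariate no member was called by limma. The members' median was then -0.67. No median or share of all genes is given for that fit, so this value does not show a fall apart from other genes. Within run B the single PD-1cKO tumor had a summed level of 26227 FPKM against 40506 to 57442 in the 9 WT tumors. That PD-1cKO tumor also had the highest misc_RNA share, 59.8% of all FPKM. Within run C the 2 PD-1cKO tumors had 38940 and 50348, below and above the single WT tumor (45349), and 262 and 555 FPKM of Rpl7 against 806.

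Cell makeup and growth moved with genotype too. All 9 T cell markers were higher in PD-1cKO tumors (sums of 15.7 to 55.8 in WT against 38.5 to 172 FPKM), as were 6 of 8 macrophage, 4 of 7 fibroblast and 3 of 4 tested neutrophil markers, the last with median sums of 1.63 in WT and 9.12 in PD-1cKO and up to 369 in the latter. Of 16 proliferation genes 9 were lower, with sums of 737 to 1033 in WT and 128 to 741 in PD-1cKO. Replicates 4 and 8 were the PD-1cKO tumors lowest in proliferation genes. The count of members lower was 19 without replicate 4, 19 without replicate 8 and 18 without both. Of all genes tested, 7.21, 7.94 and 5.78% were then lower, against 12.6% with every tumor. Leaving out these 2 tumors, a choice made after seeing the data, does not test the part of growth. The highest proliferation sum in PD-1cKO, 741, barely passed the lowest in WT, 737, so the groups still differ without them. The part of growth and of the other cell types in the members' levels was not tested.

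The response to 2 doses of PD-1 Ab and the difference of PD-1cKO from WT were compared by a limma contrast over the 4 groups. No member differed at an adjusted p under 0.01, where 0.0975% of all genes did, and 9 of 81 members passed an unadjusted p under 0.05 (15.8% of all genes). The median difference was 0.05 over the members and 0.23 over all genes tested. Rpl22l1 came nearest to the threshold. Its log2 fold change was -0.49 after PD-1 Ab and 0.57 in PD-1cKO, a difference of -1.06 (SE 0.27, limma adjusted p = 0.055). Rplp1 (-0.70, limma adjusted p = 0.173) and Rpl7 (0.91, limma adjusted p = 0.181) followed without passing.

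Paralogs were set against their parent genes as a ratio of FPKM, which cancels the shift of the whole family. Rpl22 and Rpl22l1 encode proteins that can replace each other, and Rpl22 is known to hold down Rpl22l1. Rpl22l1 was at 16.5 to 17.5% of Rpl22 in culture. In WT tumors of the deletion study it was at 8.31 to 16.6% with a median of 13.0, and in PD-1cKO tumors at 11.3 to 33.8% with a median of 17.5, and these ranges overlapped. After 2 doses the isotype and PD-1 Ab tumors had medians of 18.3 and 16.9%, so there the parent and the paralog differed by similar amounts.

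Rps27l, a p53-induced paralog of Rps27, was at 23.7 to 24.4% of Rps27 in culture, 20.4 to 23.6% at baseline and 16.5 to 27.0% with isotype after 2 doses. It was at 8.09 to 16.8% in WT and 6.28 to 12.9% in PD-1cKO tumors. Its own level was 203, 202 and 208 FPKM in culture and 164, 173 and 143 at baseline, where it fell, as it did in the isotype 2-dose tumors. Reads of Rps27 are the more ambiguous of the pair, with 46.2% of its stretches shared with other genes against 16.2% in Rps27l.

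Rpl39l is a low-level paralog with higher values in isotype 2-dose tumors than in culture. It was at 0, 0.171 and 0.0682 FPKM in culture and between 0.519 and 1.71 in isotype 2-dose tumors (log2 fold change 2.74), having passed the filter on low values through the tumors alone. Its ratio to Rpl39 was 0 to 0.0446% in culture, 0.221 to 0.817% with isotype and 0.736 to 1.83% with PD-1 Ab after 2 doses. None of its 50-base stretches occurs in exactly the same form in another gene. The aligner allowed mismatches, so this cannot tell whether some fragments of Rpl39 were placed on Rpl39l. A listed 0 can be a failed estimate, and the fold change of so low a gene depends on the 0.1 FPKM added before the log.

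**Figure D5:**
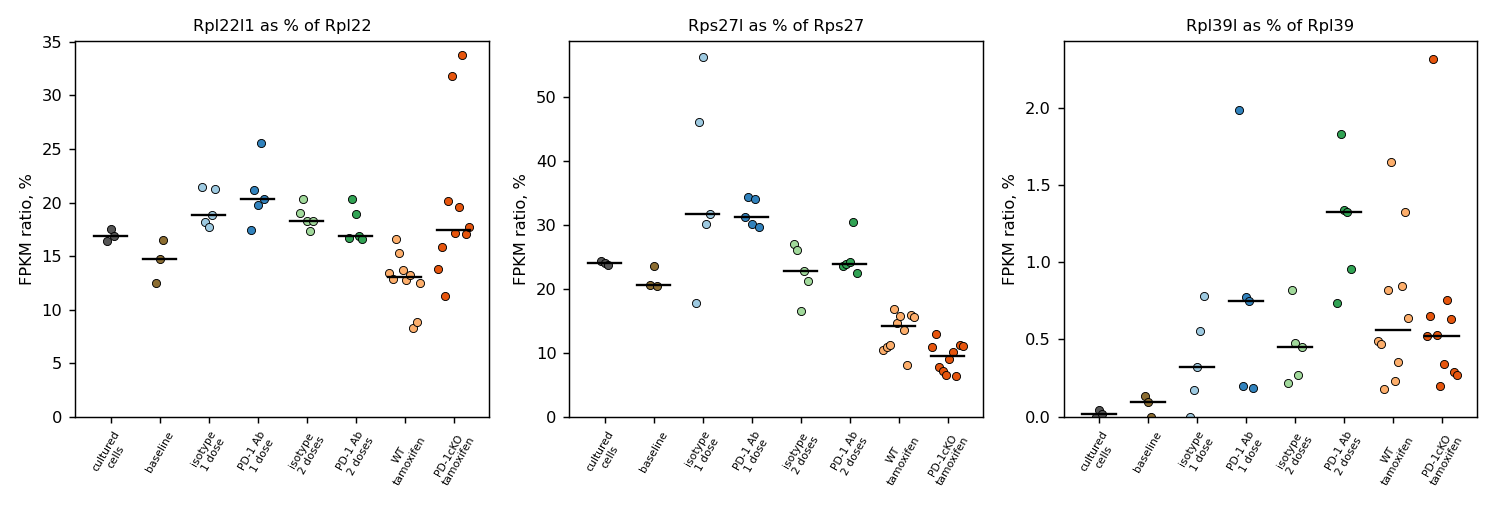
FPKM of Rpl22l1, Rps27l and Rpl39l as a percentage of their parent genes in each sample, with a line at the group median for the 8 groups. Rpl22l1 spreads from 11.3 to 33.8% in PD-1cKO tumors, Rps27l is lower in both groups of the deletion study than in culture, and Rpl39l is near 0 in culture.

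Genes tied to translation were counted for comparison. The lists held 20 translation factors and related genes, 25 ribosome biogenesis genes and 78 mitochondrial ribosomal protein genes. The first list includes Npm1, Nap1l1 and Fau, and Fau itself encodes a ribosomal protein, under a symbol that the rule for members does not match. In PD-1cKO tumors 7, 5 and 23 of them were lower and none higher, with median log2 fold changes of -0.68, -0.62 and -0.52, each below that of the members (-0.41). After 2 doses of PD-1 Ab 0, 0 and 1 were lower by limma and 0 higher, with medians of -0.35, -0.35 and -0.33, near the members' -0.38. The nucleolar chaperone gene Npm1 had the lowest value of the translation list in PD-1cKO tumors (-1.57) and the elongation factor gene Eef2 the highest (-0.03). Between isotype 2-dose tumors and culture, 12 of 25 biogenesis genes were lower (median -0.38), led by Polr1a of RNA polymerase I (-1.26), while the ribosomal proteins had a median of -0.16.

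Members with a pyrimidine run at the start and those without differed little in most comparisons. In PD-1cKO against WT their medians were -0.34 (34 members) and -0.40 (26), and after 2 doses of PD-1 Ab -0.36 and -0.41. Between isotype 2-dose tumors and culture they were -0.10 with a run and -0.34 without. The 26 include any member whose annotated start is imprecise, so they are not shown to lack a run.

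Ribosomal protein genes also carry small nucleolar RNA genes, the guides of ribosomal RNA modification, in their introns. Of the members, 30 host 58 such genes, 39 of which were listed at 0 in every group. Only 2 had a group mean above 1 FPKM: Gm26448 in Rpsa, at 42.9 in WT and 37.3 in PD-1cKO tumors, and Gm22270 in Rpl5, at 8.25 and 5.51. The rest were too low in these libraries to be compared with their hosts.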

How the data were processed

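Total RNA was depleted of ribosomal RNA, made into stranded libraries and sequenced with paired 50-base reads. The authors aligned reads to Mouse B38 with the Omicsoft Aligner and quantified Ensembl genes in Array Studio, and the deposited values are FPKM, without counts or depth. Groups came from the labels, annotation from GENCODE M21 (99.26% of identifiers matched) and starts from RefSeq. In R 4.3.3, limma 3.58.1 (eBayes with trend, compared groups only) was run on log2(FPKM + 0.1) for genes averaging 0.5 FPKM or more in a compared group, with Benjamini-Hochberg adjustment over all genes tested and calls at 0.01 and 1.2-fold. The procedure was tested on simulated data. The authors tested counts, which are not used here. Members, lists and tests were chosen with earlier results of these data known. Named are paralogs and parents, the stalk, the 5S partners, 10 members with other roles, the 3 highest and 3 lowest log2 fold changes per comparison and the 5 highest and lowest means; a member left out of the text is not reported here and stays in the counts. Nothing says whether replicates are independent batches, so p-values measure the spread between these samples. Alternatives were other scalings, a pseudocount of 1, filters of 1 FPKM and none, other fold limits, no trend, all groups in a single fit, a replicate block, identifier runs as a covariate and leaving out libraries. Removal of a GC trend (lowess, span 0.5) and the omission of PD-1cKO replicates 4 and 8 were added after seeing the data.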

Additional observations from a re-analysis of the deposited data

Results flagged for a closer look

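Among 180 groups of values of the named members and their summaries, 21 held a sample whose gap to the nearest other sample was large for the range of its group; chance alone marks about 1 in 20. In isotype 1 dose, replicate 1 accounted for 12 of these. The members' sum was 25541 FPKM there, with a share of 14.05% of protein-coding FPKM, Rplp0 at 503, Rplp1 at 498, Rpl3 at 384, Rpl13a at 361, Rps14 at 303, Rpsa at 232, Rps19 at 211, Rps3 at 197, Rpl11 at 118 and Rpl7l1 at 19.9. In the same group, replicate 2 was low in Rps25 (239 FPKM) and Rps27a (614). In isotype 2 doses, replicate 3 had a small-to-large subunit ratio of 0.778. In PD-1 Ab 2 doses, replicate 4 was high in Rpl7l1 (44.4), Rps27l (142) and Rpl24 (499), and replicate 5 in Rpl3l (0.584). Rpl3l was also high in PD-1cKO replicate 5 (2.63), and Rpl22 was low in WT replicate 1 (162).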

How the results depend on the processing

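Depth is unknown, so no limit of detection can be set. Counts in this section are of members alone, without the share of all genes beside them. After 2 doses of PD-1 Ab, 2 members were lower with protein-coding scaling, 1 with all groups in a single fit and 0 to 1 on leaving out a replicate (1 without isotype replicate 4). In PD-1cKO against WT, 1 member was higher with each other scaling, all groups in a single fit and the GC trend removed, and 0 were lower with identifier runs as a covariate and 9 at 2-fold. For isotype 2 doses against culture, members lower were 4 with median-of-ratios, 2 with upper-quartile, 21 with protein-coding scaling, 1 at 2-fold and 2 to 29 on leaving out a replicate; members higher were 1 with upper-quartile scaling, no filter, all groups, no trend and 2-fold, and 1 to 3 on leaving out a replicate (3 without isotype replicate 2 or 3, 1 without replicate 1, 4 or 5 or any culture). For baseline against culture, members lower were 5 with no filter, 6 with no trend, 0 with all groups or at 2-fold and 4 to 15 on leaving out a replicate; members higher were 2 with the GC trend removed and 0 to 2 on leaving out a replicate (2 without baseline replicate 3). For baseline against isotype 2 doses, 1 was higher with all groups and 0 to 4 on leaving out a replicate. Same-numbered samples did not deviate together (r of -0.26 to 0.19), so the numbers were not used as a pairing. Low correlations cannot exclude that such samples were handled together. With a replicate block, isotype 2 doses against culture had 0 lower and 1 higher, PD-1cKO 19 lower, baseline against culture 12 lower, and other calls did not change. After 1 dose, Rps9 changed sign with upper-quartile scaling (-0.00271), the GC trend removed (-0.057) and without isotype replicate 1 (-0.032), with 0.36 at most on leaving out a replicate, and Rpl12 ran from -0.25 to 0.048, with 0.043 without isotype replicate 3 and 0.0096 without PD-1 Ab replicate 2; neither was ever called. The members' median after 1 dose was -0.15, -0.17 and -0.16 under the other scalings and -0.17 with the GC trend removed. Causes of these changes were not tested.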
